A study of Mus musculus with 33 samples.

Results

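The genes described here are the galectins *Lgals1*, *Lgals3*, *Lgals8* and *Lgals9* and the gene of galectin-3-binding protein, *Lgals3bp*, measured as RNA in the brain of Mcoln1-/- mice and control littermates. They were selected on their RNA levels, since several of them had been seen to be higher in Mcoln1-/- than in control brains. Taken by gene symbol, all 5 were present among the 13777 genes counted at 1, 2 and 3 months of age and among the 13958 genes counted at 7 months. All 5 passed the filter on low counts at every age, *Lgals3* at 2 months only through its Mcoln1-/- libraries, since 3 of the 4 controls reached the limit and 4 libraries were needed. The difference between Mcoln1-/- and control brains, by which they were chosen, is therefore given as a description, with its standard error (SE) and without a p value. *Mcoln1* encodes mucolipin-1, a cation channel of the lysosomal membrane, and its loss in humans causes the lysosomal storage disease mucolipidosis type IV.

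The data were 33 libraries, 16 of Mcoln1-/- mice and 17 of controls, all on a C57Bl/6J background. At 1, 2 and 3 months the controls were all Mcoln1 +/-, with 4 libraries at each age, against 4, 4 and 3 Mcoln1-/- libraries. At 7 months there were 5 Mcoln1-/- libraries and 5 controls, of which 3 were labelled Mcoln1 +/- and 2 Mcoln1 +/+. The study used both sexes, and the labels do not give the sex of a library. The labels do not state that each library is a separate animal, so p values measure the spread between these samples. Brain RNA was sequenced in bulk with the MARS-seq protocol, in which reads come from the 3′ ends of transcripts, and each level below is in CPM, that is, counts relative to library size after TMM scaling. In such bulk samples more cells of a type and more RNA per cell cannot be told apart. Total counts per library ranged from 1614759 to 4422461 at 1 to 3 months and from 2245117 to 6047257 at 7 months. The 2 age ranges were counted and deposited as separate tables, so levels at 7 months are set beside the younger ages only as a description.

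The 7-month libraries fell into a deeper and a shallower set. The deepest library of the shallower set held 2874692 counts and the shallowest of the deeper set 4066235. The deeper set held controls 12, 29 and 74 and Mcoln1-/- libraries 21 and 66. The shallower set held controls 71 and 75 and Mcoln1-/- libraries 68, 69 and 72. The 7-month log2 fold-changes of *Lgals3bp*, *Lgals3*, *Lgals9* and *Lgals1* are therefore also given within each set, and those of the gene lists are not. The data column of control 12 is named for 8 months, whereas its label gives 7 months.

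Galectins are carbohydrate-binding proteins that recognize β-galactosides on glycoproteins and glycolipids. They are made in the cytosol and leave the cell without a signal peptide, and outside the cell they cross-link surface receptors. Inside the cell several of them gather on damaged lysosomes and endosomes, where glycans of the lumen become exposed. Galectin-3-binding protein is not a galectin but a heavily glycosylated, secreted protein of the scavenger receptor family, and it is a ligand of galectin-3. In brain, galectin-3 is best known from activated microglia and infiltrating macrophages.

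The labels were checked by the deleted gene and by markers of brain cells. *Mcoln1* RNA was at 46.6 ± 2.69 CPM in controls and 5.41 ± 1.78 CPM in Mcoln1-/- brains at 1 month (SD, n = 4 and 4), and at 45.0 ± 6.31 and 9.85 ± 4.66 CPM at 7 months (SD, n = 5 and 5). At each age every Mcoln1-/- library lay below every control. The log2 fold-change of *Mcoln1* was −3.06 at 1 month (adjusted p = 1.55e-10), −2.84 at 2 months (adjusted p = 6.44e-08), −3.07 at 3 months (adjusted p = 4.64e-05) and −2.29 at 7 months (adjusted p = 0.000148; edgeR quasi-likelihood test, Benjamini-Hochberg adjustment). All 6 neuronal markers and all 8 astrocyte markers examined, the most abundant at 1 month being *Snap25* and *Slc1a2*, were counted in both groups at every age.

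The 5 genes lie on 4 chromosomes of the mouse genome (GRCm38, GENCODE M21), and each is annotated as protein-coding. *Lgals3bp* (ENSMUSG00000033880) spans chr11:118392751-118402092 on the minus strand, and *Lgals9* (ENSMUSG00000001123) lies on the same strand at chr11:78962974-78984946. *Lgals3* (ENSMUSG00000050335) is at chr14:47367751-47386160 on the plus strand, *Lgals1* (ENSMUSG00000068220) at chr15:78926725-78930465 on the plus strand and *Lgals8* (ENSMUSG00000057554) at chr13:12439415-12464944 on the minus strand. *Lgals8* overlaps *Heatr1* on the opposite strand, and since the use of strand in counting is not stated, reads of that overlap cannot be assigned to either gene with certainty. *Lgals1* has processed pseudogenes on chromosomes 15 and 17, so some of its reads may not have mapped uniquely.

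Promoter windows of 250 bases before and 50 after the start of a RefSeq gene (GRCm38.p6) were at hand for 4 of the 5 genes. RefSeq starts differ from the outermost starts of the GENCODE genes given above. The windows of *Lgals3* (chr14:47373610-47373909) and *Lgals8* (chr13:12461689-12461988) lie wholly within the GENCODE genes, and those of *Lgals3bp* (chr11:118401910-118402209) and *Lgals9* (chr11:78984875-78985174) lie partly within them. The *Lgals3bp* match below is inside the annotated gene. They were searched because interferon-stimulated genes were among the genes that rose in these brains, and the sequences of *Lgals9* and *Lgals3bp* are printed because they hold matches. The interferon-stimulated response element, searched as GAAA, any 2 bases and GAAA, was found on either strand in 3.44% of 32851 windows. The shorter core AANNGAAA, which every match of the longer motif contains, was found in 23.9%, and it was added after the sequences had been read. *Lgals9* held the longer motif at bases −55 to −46 and 16 to 25 from its RefSeq start, and a further match of the core alone at −151 to −144. *Lgals3bp* held the core alone, at −14 to −7. The windows of *Lgals3* and *Lgals8* held neither motif, nor did any of the 4 windows hold TTCNNNGAA (8.3% of windows), CACGTG (7.15%) or TGANTCA (7.81%). A match is a description of the letters and not a site of binding. In the sequences below, 5′ to 3′ on the minus strand, capitals mark the matches. They are the *Lgals9* sequence before its annotated exons (chr11:78984947-78985174), the *Lgals9* match after the start (chr11:78984890-78984919) and the *Lgals3bp* match (chr11:118401955-118401984).
Lgals9 upstream: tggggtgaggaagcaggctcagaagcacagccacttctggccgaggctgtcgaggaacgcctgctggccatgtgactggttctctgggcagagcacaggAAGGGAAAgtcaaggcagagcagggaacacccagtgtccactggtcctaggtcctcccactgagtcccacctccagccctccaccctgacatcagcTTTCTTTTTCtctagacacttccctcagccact
Lgals9 after the start: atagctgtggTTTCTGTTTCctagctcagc
Lgals3bp: tgttttctgaaAATCGAAActaggtgaggt

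*Lgals3bp*, the secreted ligand of galectin-3, was near control level in Mcoln1-/- brain at 1 month and more than doubled at the later ages. At 1 month the level was 30.05, 32.3, 33.7 and 32.2 CPM in the 4 controls and 39.6, 41.1, 45.2 and 26.3 CPM in the 4 Mcoln1-/- libraries. Of the Mcoln1-/- libraries 3 lay above every control and the other lay below every control, so the groups overlapped. The log2 fold-change was 0.24 (SE 0.15), from means of 32.1 ± 1.51 and 38.1 ± 8.18 CPM (SD, n = 4 and 4).

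At 2 months *Lgals3bp* was at 19.0, 30.5, 29.1 and 33.5 CPM in controls and at 60.0, 58.5, 62.2 and 71.01 CPM in Mcoln1-/- brains. At 3 months it was at 28.3, 36.9, 19.5 and 24.6 CPM in controls and at 80.2, 55.4 and 78.0 CPM in Mcoln1-/- brains. At both ages every Mcoln1-/- library lay above every control, and the lowest of them, at 55.4 CPM, was well above the highest control of either age, at 36.9 CPM. The log2 fold-change was 1.17 (SE 0.16) at 2 months, 1.37 (SE 0.21) at 3 months and 1.27 (SE 0.13) over both ages with age as a term. Between 2 and 3 months the fold-change differed by 0.21 on the log2 scale (SE 0.26), which is less than its error.

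At 7 months *Lgals3bp* was at 27.5, 31.2 and 37.0 CPM in the Mcoln1 +/- controls, at 33.0 and 48.6 CPM in the Mcoln1 +/+ controls and at 128, 155, 121, 125 and 112 CPM in the Mcoln1-/- libraries. The lowest Mcoln1-/- library was more than 2-fold above the highest control. A log2 fold-change of 1.88 (SE 0.15) was fitted, a 3.67-fold difference, from means of 35.5 ± 8.12 and 128 ± 16.2 CPM (SD, n = 5 and 5). It was 2.22 (SE 0.14) within the deeper set and 1.48 (SE 0.13) within the shallower set. Set side by side, the Mcoln1-/- means of *Lgals3bp* ran 38.1, 62.9, 71.2 and 128 CPM at 1, 2, 3 and 7 months, with the libraries of 2 and 3 months overlapping, while the control means ran 32.1, 28.0, 27.3 and 35.5 CPM with overlapping libraries.

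**Figure D1:**
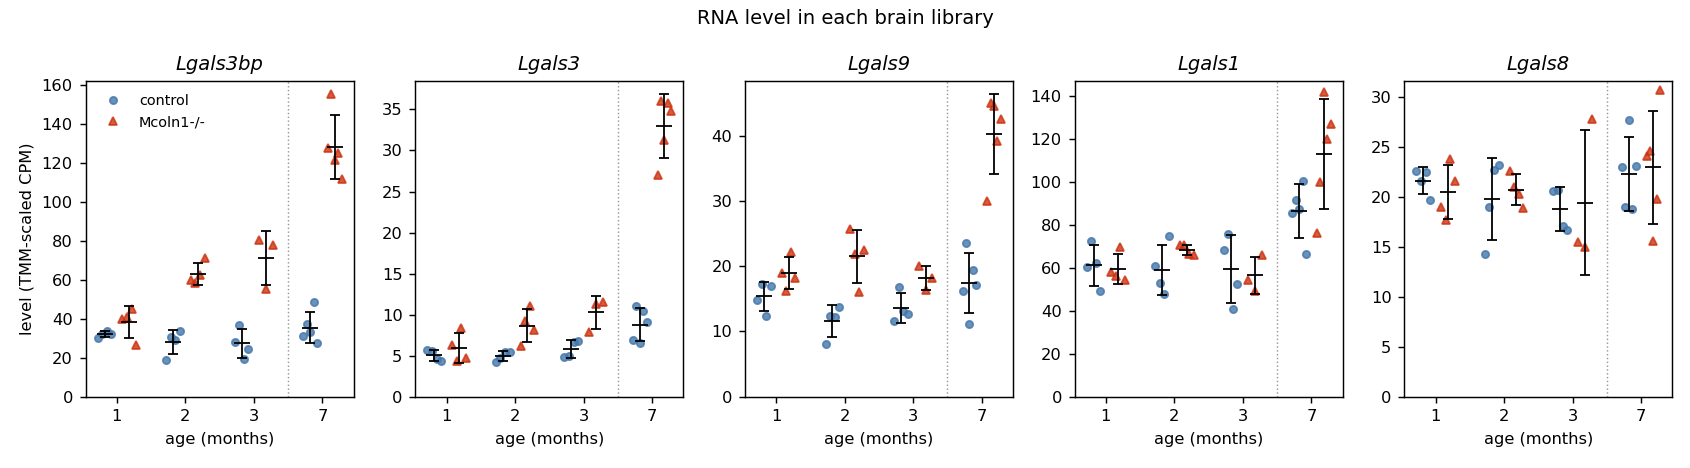
Level of each gene (y axis, TMM-scaled CPM) by age in months (x axis) in each control library (blue circles) and Mcoln1-/- library (red triangles), with the mean and SD as black bars. The dotted line separates the 7-month table, which was counted apart. *Lgals3bp* triangles stand clear of the circles from 2 months on, and *Lgals8* triangles and circles are mixed at every age.

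*Lgals3*, the galectin that binds *Lgals3bp* and is a marker of activated microglia, was counted at low levels in the younger brains, with 9 to 35 reads per library. At 1 month it was at 5.65, 5.59, 4.65 and 4.37 CPM in controls and at 6.33, 4.30, 8.43 and 4.73 CPM in Mcoln1-/- brains, and the groups overlapped. At 2 months it was at 4.27, 4.67, 5.45 and 5.42 CPM in controls and at 6.17, 9.24, 11.1 and 8.17 CPM in Mcoln1-/- brains. At 3 months it was at 4.83, 4.95, 6.69 and 6.76 CPM in controls and at 7.93, 11.3 and 11.6 CPM in Mcoln1-/- brains. At 2 and at 3 months every Mcoln1-/- library was thus above every control of its age. The log2 fold-change of *Lgals3* was 0.23 (SE 0.27) at 1 month, 0.79 (SE 0.27) at 2 months, 0.84 (SE 0.27) at 3 months and 0.82 (SE 0.18) over 2–3 months.

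At 7 months *Lgals3* was at 6.87, 11.1 and 9.10 CPM in the Mcoln1 +/- controls, at 6.50 and 10.4 CPM in the Mcoln1 +/+ controls and at 27.0, 36.0, 31.3, 35.8 and 34.8 CPM in Mcoln1-/- brains. The lowest Mcoln1-/- library was again more than 2-fold above the highest control, and between 66 and 183 reads were counted in each. The log2 fold-change was 1.94 (SE 0.18), a 3.83-fold difference, from means of 8.80 ± 2.06 and 33.0 ± 3.84 CPM (SD, n = 5 and 5). Within the deeper and the shallower set it was 2.05 (SE 0.21) and 1.68 (SE 0.21).

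*Lgals9* encodes a galectin with a pair of carbohydrate-binding domains in 1 chain, known as a ligand of the immune receptor TIM-3 and as a gene induced by interferon. At 1 month it was at 14.9, 17.3, 12.4 and 16.9 CPM in controls and at 19.0, 16.3, 22.2 and 18.2 CPM in Mcoln1-/- brains. At 2 months it was at 8.07, 12.4, 12.3 and 13.8 CPM in controls and at 25.7, 21.9, 16.0 and 22.5 CPM in Mcoln1-/- brains. At 3 months it was at 11.6, 16.9, 13.1 and 12.7 CPM in controls and at 20.04, 16.3 and 18.2 CPM in Mcoln1-/- brains. The groups stood apart at 2 months and overlapped at 1 and 3 months, where at 3 months a single control lay above the lowest Mcoln1-/- library. The log2 fold-change of *Lgals9* was 0.29 (SE 0.17) at 1 month, 0.91 (SE 0.21) at 2 months, 0.41 (SE 0.22) at 3 months and 0.66 (SE 0.15) over 2–3 months. The 3-month value was 0.49 below the 2-month value on the log2 scale (difference −0.49, SE 0.27).

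At 7 months *Lgals9* was at 16.2, 23.6 and 17.2 CPM in the Mcoln1 +/- controls, at 11.1 and 19.4 CPM in the Mcoln1 +/+ controls and at 29.99, 45.1, 44.5, 39.2 and 42.5 CPM in Mcoln1-/- brains. All 5 Mcoln1-/- libraries lay above all 5 controls. Its log2 fold-change was 1.22 (SE 0.18), a 2.33-fold difference, and it was 1.31 (SE 0.21) within the deeper and 1.00 (SE 0.18) within the shallower set.

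*Lgals8*, the other galectin here with a pair of binding domains in 1 chain and known as a sensor of damaged endosomes, showed no separation of the groups at any age. Its level was 22.3 ± 3.67 CPM in controls and 22.9 ± 5.63 CPM in Mcoln1-/- brains at 7 months (SD, n = 5 and 5), with libraries from 18.7 to 27.7 and from 15.6 to 30.7 CPM. The log2 fold-change lay between −0.06 (SE 0.15) at 1 month and 0.09 (SE 0.18) at 2 months, and was 0.07 (SE 0.24) at 3 months and 0.04 (SE 0.18) at 7 months. Over the alternatives run at 7 months, the value ranged from −0.06 to 0.26. At 3 months the value rested on Mcoln1-/- library 3, at 27.8 CPM against 15.4 and 14.97 CPM in the other Mcoln1-/- libraries, and was −0.31 (SE 0.25) without it.

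*Lgals1*, a small galectin that acts as a dimer and is found in astrocytes, neurons and vessels, also overlapped between the groups at all ages. At 7 months it was at 85.8, 91.7 and 66.4 CPM in the Mcoln1 +/- controls, at 87.7 and 101 CPM in the Mcoln1 +/+ controls and at 76.2, 100.02, 142, 120 and 127 CPM in Mcoln1-/- brains. The 3 highest of these were the Mcoln1-/- libraries of the shallower set. The log2 fold-change was 0.38 (SE 0.16) at 7 months, 0.14 (SE 0.15) within the deeper set and 0.44 (SE 0.12) within the shallower set. At 1, 2 and 3 months it was −0.04 (SE 0.13), 0.24 (SE 0.14) and −0.07 (SE 0.21).

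**Figure D2:**
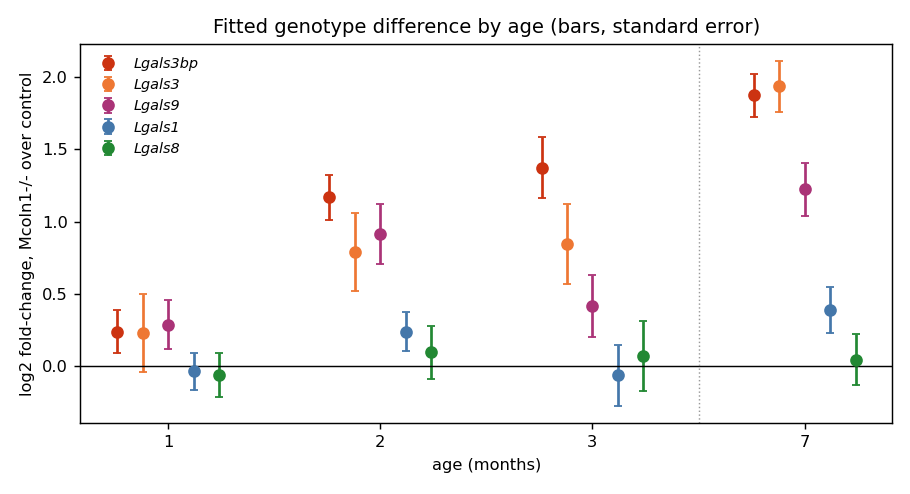
Fitted log2 fold-change of each of the 5 genes, Mcoln1-/- over control (y axis), at 1, 2, 3 and 7 months (x axis), with SE as bars and a dotted line before the separately counted 7-month table. *Lgals3bp*, *Lgals3* and *Lgals9* lie above 0 at all ages and highest at 7 months, at 1.88, 1.94 and 1.22, while *Lgals8* stays near 0.

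The label differentially expressed (DE) was given where edgeR, run across all genes tested, returned an adjusted p no greater than 0.05 and a difference of 1.5-fold or more. At 1 month 0 of the 5 genes were DE, with edgeR or with DESeq2, while 0.434% of all 11051 genes tested were DE and 0.0452% were DE and higher. At 2 months *Lgals3bp* was DE, where 0.311% of all genes were DE and 0.16% were DE and higher. At 3 months it was again *Lgals3bp*, with 0.0438% of all genes DE and 0.0351% DE and higher. Over 2–3 months *Lgals3bp*, *Lgals3* and *Lgals9* were DE, with 0.483% of all genes DE and 0.311% DE and higher. The same 3 genes were DE at 7 months, with 0.864% of all genes DE and 0.819% DE and higher. All Mcoln1-/- libraries lay above all controls for 0 of the 5 genes at 1 month (1.72% of all genes did so), 3 at 2 months (2.22%), 2 at 3 months (2.22%), 1 over 2–3 months (0.198%) and 3 at 7 months (1.35%). Since these contrasts were known when the genes were chosen, nothing is read from these counts. The median log2 fold-change over the 5 genes was 0.23 at 1 month, 0.66 over 2–3 months and 1.22 at 7 months, and over all genes tested it was 0.00, 0.00 and −0.01.

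Some of these calls rested on single libraries. The 3-month call of *Lgals3bp* was lost without control 1, 3 or 4 or Mcoln1-/- library 3 (log2 fold-change 1.39, 1.24, 1.33 and 1.30), in a comparison with 5 DE genes in all. The 2–3-month call of *Lgals3* was lost without 3-month control 2 (0.78), 2-month Mcoln1-/- library 2 (0.80) or 3-month Mcoln1-/- library 2 (0.79) or 3 (0.76). The 2–3-month call of *Lgals9* held in only 5 of 15 such omissions, with log2 fold-changes from 0.59 to 0.75. The *Lgals3bp* calls at 2 months and over 2–3 months and the 3 calls at 7 months held in every omission of 1 library.

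Whether the difference in *Lgals3bp* between genotypes was larger at 2–3 months than at 1 month was estimated directly, from the 23 libraries of the younger ages. The log2 fold-change at 2–3 months exceeded that at 1 month by 1.02 (SE 0.22), or 2.03-fold, and by 0.87 to 1.12 when each library was left out in turn. It is built from the same differences by which the gene was chosen, so it is given as a description. Across all genes edgeR called 0 of 11799 for this difference (0%), with 250 at an unadjusted p under 0.05, and DESeq2 called 2, *Lgals3bp* and *Ctsc*, from which nothing is read for *Lgals3bp*. The same difference was 0.58 (SE 0.31) for *Lgals3*, 0.36 (SE 0.22) for *Lgals9*, 0.14 (SE 0.22) for *Lgals8* and 0.11 (SE 0.20) for *Lgals1*.

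Control brains alone were compared between ages, with edgeR in a fit on the 12 control libraries of 1, 2 and 3 months. These libraries also entered the differences by which the genes were chosen, so the tests within controls are not independent of that choice. Between 1 and 3 months 178 of 11565 genes were DE (1.54%), 58 higher (0.502%) and 120 lower at 3 months. None of the 5 genes was among them. The log2 fold-change was −0.20 (SE 0.18, adjusted p = 0.665) for *Lgals3bp*, 0.18 (SE 0.24, adjusted p = 0.802) for *Lgals3*, −0.17 (SE 0.19, adjusted p = 0.747) for *Lgals9*, −0.18 (SE 0.17, adjusted p = 0.671) for *Lgals8* and −0.03 (SE 0.18, adjusted p = 0.97) for *Lgals1* (edgeR). Exact 2-sided permutation tests on 4 against 4 libraries gave p from 0.114 for *Lgals8* to 0.8 for *Lgals1*, with 0.0286 the smallest p this design allows, and adjusted over the 5 tests 0.429 to 0.8.

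By their labels the 7-month controls were of 2 genotypes. The paper's figure legend gives all 5 as Mcoln1 +/-, while its methods name littermates of either genotype as controls. The labels were followed here. The libraries labelled Mcoln1 +/- and Mcoln1 +/+ overlapped for all 5 genes, while 13.9% of all genes did not overlap. *Lgals3bp* was at 31.9 ± 4.83 CPM in Mcoln1 +/- (SD, n = 3) and 40.8 ± 11.0 CPM in Mcoln1 +/+ brains (SD, n = 2), a log2 difference of −0.36 (SE 0.22). Of 11791 genes 0 were DE between them with edgeR (0%), 139 had an unadjusted p under 0.05, and DESeq2 called 0. Exact permutation tests of the 5 genes gave p from 0.4 to 1, where 3 against 2 libraries cannot go below 0.1. Against the Mcoln1 +/- controls alone the 7-month log2 fold-changes were 2.03 for *Lgals3bp*, 1.90 for *Lgals3* and 1.11 for *Lgals9*.

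Of the other galectins, only *Lgalsl*, a galectin-like gene, was counted highly enough to be tested. It was at 74.3 ± 11.1 CPM in controls and 78.9 ± 5.15 CPM in Mcoln1-/- brains at 7 months (SD, n = 5 and 5), and was not DE at any age (log2 fold-change from −0.01 to 0.08; adjusted p from 0.993 to 1.00, edgeR).

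Known partners of galectins and of galectin-3-binding protein were examined as a list of 14 receptors and glycoproteins, of which 9 were tested at each age. *Trem2*, a microglial lipid receptor that galectin-3 binds, rose from 30.8 ± 4.06 to 62.9 ± 6.09 CPM at 2–3 months (SD, n = 8 and 7; adjusted p = 1.41e-06, edgeR) and from 44.5 ± 5.72 to 119.5 ± 31.0 CPM at 7 months (SD, n = 5 and 5; adjusted p = 0.000248, edgeR). *Tyrobp*, its signalling adaptor, rose with log2 fold-changes of 0.78 (SE 0.13, adjusted p = 0.00169) at 2–3 months and 1.41 (SE 0.20, adjusted p = 0.00155) at 7 months. These were the 2 of 9 that rose at each of those ages with edgeR, and 0 fell. Of all genes 0.311% and 0.819% were DE and higher at these ages. DESeq2 called 1, 2 and 3 of the 9 at 1, 2–3 and 7 months. At the same ages 4, 3 and 6 had an unadjusted p under 0.05 in edgeR. At 1 month 1 of the 9 changed, *Cd82*, a tetraspanin of the cell surface, which fell from 52.0 ± 3.29 to 29.3 ± 4.75 CPM (SD, n = 4 and 4; adjusted p = 0.000869, edgeR). Its log2 fold-change was −0.83 (SE 0.13), and at that age 5 of 6 oligodendrocyte markers also fell, with a list median of −0.87. Their part in the value of *Cd82* was not tested. The list's median log2 fold-change was −0.08, 0.08 and 0.43 at 1, 2–3 and 7 months.

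Genes of the response to damaged lysosomes, some of which act where galectins have marked a ruptured membrane, did not pass the test at any age. Of 12 genes tested, 0 were DE at 1, 2–3 and 7 months with edgeR or DESeq2, while 2, 1 and 0 had an unadjusted p under 0.05. The autophagy receptor *Sqstm1* was at 712 ± 82.5 and 771 ± 75.6 CPM in control and Mcoln1-/- brains at 7 months (SD, n = 5 and 5), and *Map1lc3b*, which encodes the autophagosome protein LC3B, at 532 ± 33.1 and 564 ± 99.8 CPM. Genes of N-glycan branching, whose products build the glycans that galectins bind, gave 0 of 8 at the same ages with both tools, with 1, 0 and 1 at an unadjusted p under 0.05. *Mgat3*, which adds the bisecting branch, was at 158 ± 18.1 and 139 ± 14.97 CPM at 7 months (SD, n = 5 and 5), and *Mgat4b*, which adds a further antenna, at 99.0 ± 16.6 and 90.6 ± 9.52 CPM.

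Some interferon-stimulated genes rose over 2–3 and at 7 months, where 0.311% and 0.819% of all genes were DE and higher. Taken singly, 2 months gave 2 of 11 DE and 3 months 0 of 13 with edgeR, while DESeq2 called 3 and 2. Of the 2 edgeR calls at 2 months, *Irf7* passed the filter on low counts only through the Mcoln1-/- libraries. At 1 month 0 of 11 were DE with edgeR or DESeq2, with 1 at an unadjusted p under 0.05 and a median log2 fold-change of 0.20. At 2–3 months 13 were tested, of which *Usp18* and *Gbp2* passed the filter on low counts only through the Mcoln1-/- libraries. Neither of these was DE, and of the other 11 genes 6 rose and 0 fell, led by *Irf7*, the factor that amplifies the interferon response (log2 fold-change 1.43, SE 0.22, adjusted p = 0.000377, edgeR), and the antiviral gene *Oasl2* (1.34, SE 0.22, adjusted p = 0.00162, edgeR). At 7 months 13 were tested, of which *Oasl2*, *Usp18*, *Ifit1* and *Gbp2* passed the filter only through the Mcoln1-/- libraries, so that a rise was the outcome open to them, and they are given by their levels alone. *Oasl2* was at 3.54 ± 0.55 and 23.6 ± 5.95 CPM in control and Mcoln1-/- brains (SD, n = 5 and 5), *Usp18*, a brake on interferon signalling, at 3.11 ± 2.19 and 14.7 ± 4.29 CPM, *Ifit1* at 1.67 ± 0.78 and 8.80 ± 4.59 CPM, and *Gbp2* at 3.04 ± 0.71 and 8.15 ± 2.55 CPM. Of the other 9 genes 8 rose and 0 fell, among them *Irf7* (log2 fold-change 2.26, SE 0.21, adjusted p = 1.59e-05, edgeR). The exception, *Stat2*, had an adjusted p of 0.0465 in edgeR with a log2 fold-change of 0.55, under the fold-change limit. Summed over the list, the level was 119, 159, 130, 157 and 123 CPM in controls 29, 71, 74, 75 and 12, and 368, 556, 566, 510 and 446 CPM in Mcoln1-/- libraries 21, 66, 68, 69 and 72. As a share of the list's sum *Lgals3bp* came to 27.5 ± 2.96% in controls and 28.9 ± 6.86% in Mcoln1-/- brains at 1 month (SD, n = 4 and 4), to 24.5 ± 4.96% and 32.4 ± 1.27% at 2 months (SD, n = 4 and 4), and to 23.4 ± 6.38% and 35.2 ± 6.15% at 3 months (SD, n = 4 and 3). The groups of this share stood apart at 2 months and overlapped at 1, 3 and 7 months. *Lgals3bp* came to 25.7 ± 3.36% in controls and 26.7 ± 5.03% in Mcoln1-/- brains at 7 months, *Lgals3* to 6.36 ± 0.97% and 6.84 ± 0.87%, and *Lgals9* to 12.7 ± 2.496% and 8.27 ± 0.73% (SD, n = 5 and 5). At 3 months *Lgals9* came to 11.5 ± 1.54% in controls and 9.03 ± 1.06% in Mcoln1-/- brains (SD, n = 4 and 3), and these groups stood apart. They overlapped at 1, 2 and 7 months, and those of *Lgals3* at every age. The list's sum holds 14 genes at 1 to 3 months and 15 at 7 months.

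**Figure D3:**
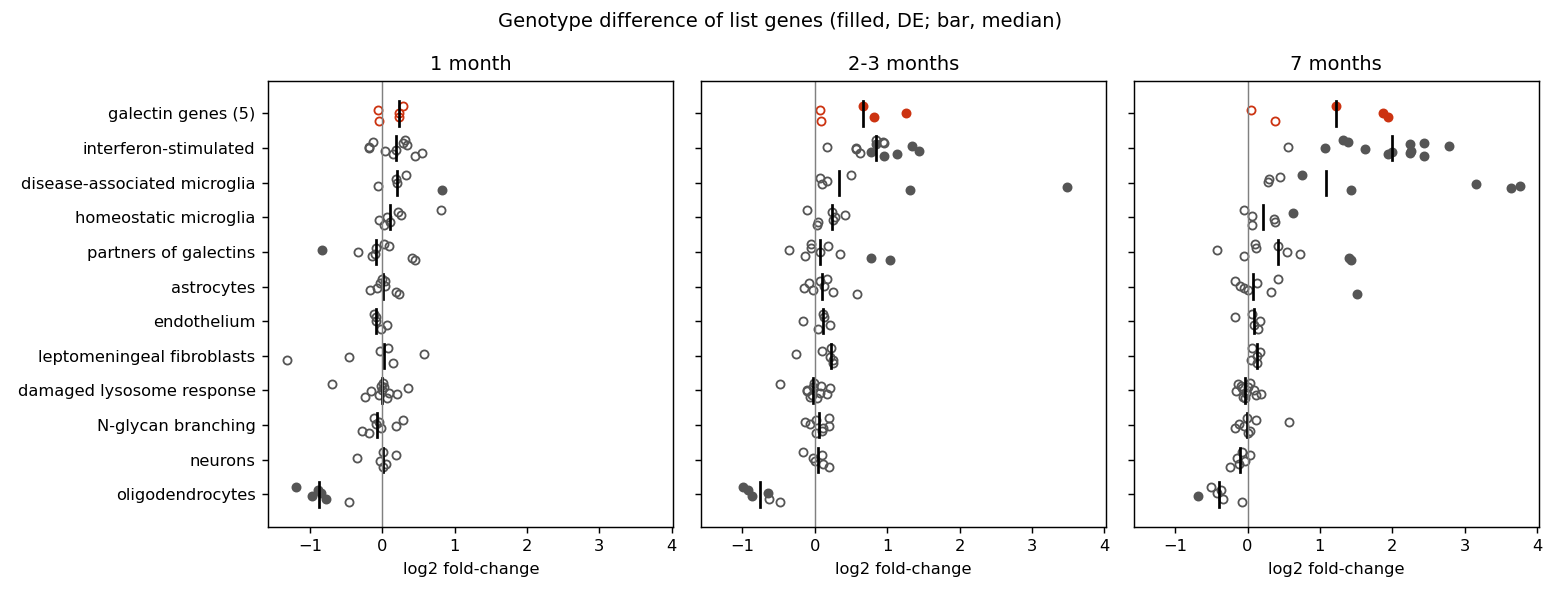
Log2 fold-change, Mcoln1-/- over control (x axis), of the genes tested in each list (rows) at 1, 2–3 and 7 months, with the 5 genes described here in red. Filled points are DE and the black bar is the median of the list, which includes genes that passed the filter on low counts only through the Mcoln1-/- libraries. For interferon-stimulated genes 0, 6 and 12 points are filled, 4 of the 12 being such genes.

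Markers of brain cell types were examined beside these genes. The 6 homeostatic microglia markers tested at 7 months had a median log2 fold-change of 0.21. The summed level of the 7 homeostatic markers in the 7-month table was 326, 331, 330, 334 and 340 CPM in controls 29, 71, 74, 75 and 12, and 386, 453, 456, 437 and 424 CPM in Mcoln1-/- libraries 21, 66, 68, 69 and 72. At 7 months the groups of this sum did not overlap, and no marker of the list was at 0 throughout. The sum of the 8 homeostatic markers counted at the younger ages also stood apart at 2 months. It ran from 296 to 341 CPM in controls and from 364 to 403 CPM in Mcoln1-/- brains (n = 4 and 4). At 1 and 3 months the groups of this sum overlapped. The part of this marker signal in the values of the galectin genes was not tested.

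Relative to the homeostatic sum *Lgals3bp*, *Lgals3* and *Lgals9* were higher in Mcoln1-/- brains at 7 months, and at the younger ages the genes differed from each other. The sum holds 8 markers at 1 to 3 months and 7 at 7 months, so shares are compared only within an age. *Lgals3bp* came to 9.06 ± 0.77% of the summed homeostatic markers in controls and 9.60 ± 2.22% in Mcoln1-/- brains at 1 month (SD, n = 4 and 4), to 8.63 ± 1.54% and 16.2 ± 1.05% at 2 months (SD, n = 4 and 4), and to 9.38 ± 1.81% and 19.9 ± 4.48% at 3 months (SD, n = 4 and 3). At 7 months it came to 10.7 ± 2.43% and 29.7 ± 3.67% (SD, n = 5 and 5). At 7 months *Lgals3* came to 2.65 ± 0.61% and 7.64 ± 0.66%, and *Lgals9* to 5.27 ± 1.37% and 9.29 ± 0.95% (SD, n = 5 and 5). At 1, 2 and 3 months the mean share of *Lgals3* was 1.43, 1.54 and 2.07% in controls and 1.49, 2.24 and 2.85% in Mcoln1-/- brains, and the groups overlapped at each of these ages. That of *Lgals9* was 4.35, 3.59 and 4.76% in controls and 4.74, 5.54 and 5.11% in Mcoln1-/- brains. The groups stood apart for all 3 genes at 7 months, for *Lgals3bp* also at 2 and 3 months, and for *Lgals9* narrowly at 2 months, where the highest control was at 4.11% and the lowest Mcoln1-/- library at 4.12%.

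**Figure D4:**
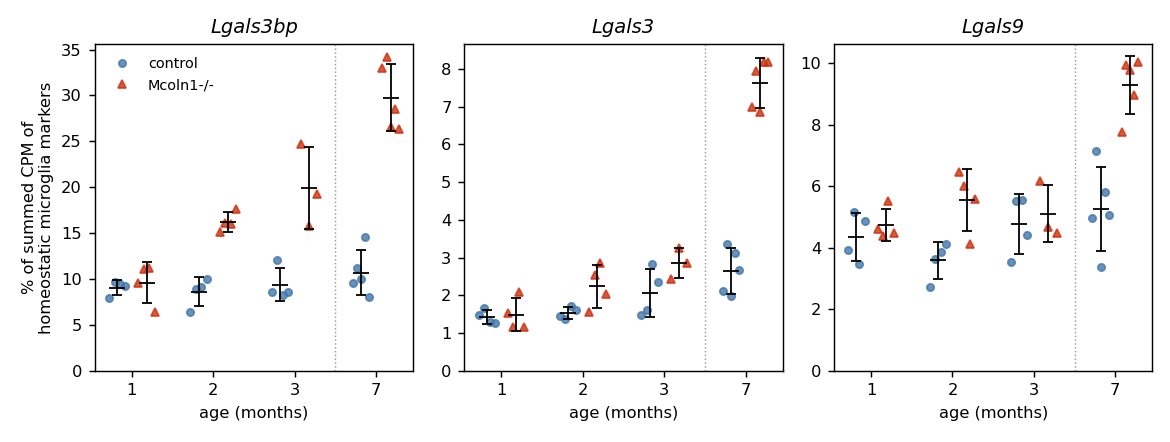
Level of *Lgals3bp*, *Lgals3* and *Lgals9* as a percentage of the summed CPM of homeostatic microglia markers (y axis) by age in months (x axis), for each control (blue circles) and Mcoln1-/- library (red triangles) with mean and SD. At 7 months *Lgals3bp* stood at 10.7% in controls and 29.7% in Mcoln1-/- brains.

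Of the disease-associated microglia markers, listed without *Lgals3*, 8 were tested at 7 months. *Itgax*, an integrin subunit, *Clec7a*, a pattern receptor, and *Cst7*, a cysteine protease inhibitor, passed the filter on low counts only through the Mcoln1-/- libraries, so a rise was the outcome open to them. *Itgax* was at 0.43 ± 0.34 and 5.61 ± 1.38 CPM in control and Mcoln1-/- brains (SD, n = 5 and 5; 0 to 3 and 8 to 38 reads), *Clec7a* at 0.50 ± 0.28 and 4.23 ± 0.56 CPM (1 to 3 and 8 to 25 reads) and *Cst7* at 1.93 ± 1.65 and 20.3 ± 2.95 CPM (1 to 9 and 46 to 102 reads). Of the other 5 markers 2 rose and 0 fell. *Cd68*, a lysosomal protein of phagocytes, rose from 19.9 ± 3.24 to 53.8 ± 5.84 CPM (SD, n = 5 and 5; adjusted p = 2.75e-05, edgeR) and *Ctsd*, a lysosomal protease, from 718 ± 151 to 1209 ± 235 CPM (adjusted p = 0.0415, edgeR). Over 2–3 months 6 were tested, of which *Cst7* again passed the filter only through the Mcoln1-/- libraries, at 0.35 ± 0.25 and 4.53 ± 2.45 CPM (SD, n = 8 and 7; 0 to 2 and 2 to 21 reads). Of the other 5 markers 1 rose and 0 fell, *Cd68*, from 13.1 ± 2.47 to 33.1 ± 4.86 CPM (adjusted p = 2.59e-06, edgeR). *Cd68* also rose at 1 month, the only 1 of 5 markers to do so, from 14.4 ± 1.85 to 26.1 ± 5.75 CPM (SD, n = 4 and 4; adjusted p = 0.0199, edgeR). The summed level of this list is set mostly by *Apoe*, at 5341 and 7295 CPM in control and Mcoln1-/- brains at 7 months. At that age its sums overlapped, from 5267 to 7908 CPM and from 5662 to 11181 CPM. They also overlapped at 2 and 3 months. At 1 month they stood apart, from 4760 to 5400 CPM in controls and from 5585 to 5902.5 CPM in Mcoln1-/- brains. The part of this sum in the values of the galectin genes was not tested.

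In astrocytes 0 of 8 markers were DE at 1 and over 2–3 months with edgeR or DESeq2, with 1 at an unadjusted p under 0.05 at each. Over 2–3 months 1 marker also had an adjusted p no greater than 0.05 in edgeR, with a rise under the fold-change limit. At 7 months 1 of 8 rose (median log2 fold-change 0.07), *Gfap*, a filament protein of reactive astrocytes (202 ± 10.2 to 577 ± 60.3 CPM, SD, n = 5 and 5; adjusted p = 1.01e-06, edgeR). Of 6 oligodendrocyte markers, 5 fell at 1 month, 4 over 2–3 months and 1 at 7 months, and 0 rose. The myelin gene *Mog* fell with log2 fold-changes of −0.97 (SE 0.09), −0.87 (SE 0.10) and −0.69 (SE 0.14), at adjusted p of 5.49e-07, 8.42e-06 and 0.0189 (edgeR). The part of these markers in the values of the galectin genes was not tested. Markers of neurons (6 tested), endothelium (5), pericytes (4), choroid plexus (6) and leptomeningeal fibroblasts (5) gave 0 DE genes at 7 months with edgeR or DESeq2, with an unadjusted p under 0.05 for 1 choroid plexus marker and for none of the other 4 lists.

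Of the border macrophage markers 3 of 4 were in the 7-month table, and none of these was at 0 throughout. Their summed level was 12.2 ± 1.05 CPM in controls and 18.0 ± 4.66 CPM in Mcoln1-/- brains at 7 months (SD, n = 5 and 5), with overlapping libraries from 10.6 to 13.5 and from 12.6 to 24.9 CPM, and its part in the values of the galectin genes was not tested. The 1 marker tested and the most abundant was *Pf4*, at 9.96 ± 1.43 and 14.2 ± 5.20 CPM (SD, n = 5 and 5; adjusted p = 0.932, edgeR). The summed level of monocyte and neutrophil markers, 4 of 5 in the table and led by *S100a9*, was 5.78 ± 1.69 and 6.84 ± 1.85 CPM, with libraries from 3.53 to 7.98 and from 4.58 to 9.47 CPM. *Alas2*, the only red blood cell marker in the tables, was at 31.5 ± 8.64 and 22.3 ± 5.51 CPM (SD, n = 5 and 5; adjusted p = 0.597, edgeR).

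The genes most alike in pattern were sought among 11038 genes, by the mean of Pearson's r over the 23 younger libraries and over the 10 libraries of 7 months. These libraries share genotype, age and depth as sources of variation, so the values are a description. Most like *Lgals3bp* were *Cd68* (r = 0.90 and 0.94), *Lyz2*, the lysozyme of phagocytes (0.85 and 0.96), the complement gene *C1qb* (0.85 and 0.94), the cathepsin gene *Ctss* (0.80 and 0.97) and *C1qc* (0.79 and 0.97). Most like *Lgals3* were *Lyz2* (0.83 and 0.99), *Tyrobp* (0.84 and 0.92), *Bst2*, an interferon-stimulated membrane tether (0.79 and 0.97), *C1qa* (0.79 and 0.97) and the peptide transporter gene *Tap1* (0.79 and 0.96). Most like *Lgals9* were *Pld4* (0.86 and 0.93), *Cd68* (0.83 and 0.93), the immunoproteasome gene *Psmb8* (0.77 and 0.93), *Usp18* (0.69 and 0.94) and *Trem2* (0.70 and 0.91).

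After the mean of each age and genotype had been removed, the likeness to these most alike genes was lower and uneven. It was 0.79 and 0.16 for *Lgals3bp* with *Cd68*, 0.42 and 0.87 for *Lgals3* with *Lyz2* and 0.73 and 0.81 for *Lgals9* with *Pld4*, over the 23 and the 10 libraries. The other most alike genes ran from 0.22 to 0.36 for *Lgals3bp*, 0.22 to 0.61 for *Lgals3* and 0.23 to 0.51 for *Lgals9* over the 23 libraries. Over the 10 libraries they ran from 0.27 to 0.59, 0.62 to 0.85 and 0.40 to 0.85. Among the 5 genes themselves, *Lgals3* and *Lgals3bp* had r of 0.71 and 0.97 before and 0.02 and 0.60 after this step, and *Lgals3bp* and *Lgals9* had 0.74 and 0.91 before and 0.53 and 0.67 after. *Lgals3* and *Lgals9* had 0.47 and 0.97 before and −0.01 and 0.89 after. *Lgals1* had r of 0.09, 0.36, 0.50 and 0.31 with *Lgals3*, *Lgals3bp*, *Lgals8* and *Lgals9* over the 23 libraries, and 0.62, 0.60, −0.30 and 0.67 over the 10. With the group means removed they were 0.01, 0.54, 0.48 and 0.23, and 0.37, 0.09, −0.44 and 0.63. *Lgals8* had r of 0.06, 0.19 and 0.32 with *Lgals3*, *Lgals3bp* and *Lgals9* over the 23 younger libraries and of −0.05, −0.04 and −0.18 over the 10 libraries of 7 months. After the group means were removed these were 0.25, 0.46 and 0.42, and −0.36, −0.43 and −0.51.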

How the data were processed

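The deposited values used here are raw counts per gene. The authors made bulk MARS-seq libraries, mapped reads to mm10 with STAR and kept reads that mapped uniquely to genes. The submitters' processing notes also name cutadapt and HTSeq, without versions, and collapsing of molecular identifiers is not given in the sources used here, so counts carry at least counting error. The authors' normalized values and their own comparisons (base means, fold-changes and p-values) were not used, and 0 columns of samples were left out.

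Each comparison was fitted on its own libraries, with age as a term for 2–3 months, by edgeR 4.0.16 (R 4.3.3; TMM, filterByExpr, quasi-likelihood F test, Benjamini-Hochberg over all genes tested). The difference between ages was a contrast over the 6 groups of 1, 2 and 3 months. The controls of 1 and 3 months were compared in a fit that also held the 2-month controls. Levels are TMM-scaled CPM with 1 scaling per table. Permutation tests (SciPy 1.17.1) used log2(CPM + 0.5). Fits were tested on simulated data. Alternatives were DESeq2 1.42.0, median-of-ratio factors, no filter, at least 10 counts in every library, each library left out, a replicate block, joint fits, the Mcoln1 +/- controls alone and the 7-month library sets.

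The 5 genes, the 17 lists and the tests were chosen with earlier results of these data known. All 5 genes are named at every age. From each list at most 4 DE genes per age are named, by size of the fold-change, or the 2 most abundant where none was DE, and 5 most alike genes are named for each of the 3 genes called DE. *Stat2*, *Gbp2*, *Ctsd*, *Ctsc* and the markers named for their abundance in a sum were named after their values were seen. Some genes of the lists are not reported here by name.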

Additional observations from a re-analysis of the deposited data

How the results depend on the processing

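Of the alternatives to each of the results, 763 were counted as the same, 24 as moved and 0 as reversing a direction that had been called. A genotype difference was the same if it moved by no more than the SD between replicates, even where a call was lost. A count of DE genes was the same if it changed by at most 1.5 times. In comparisons among controls, a gene was the same if its call did not change, whatever the size of the shift. At 3 months 5 genes were DE, against 21 with DESeq2, 8 with no filter, 31 with all 23 libraries in 1 fit and 1 to 10 with each library left out. At 7 months 97 were DE, against 64 with at least 10 counts in every library, 58 against Mcoln1 +/- controls alone, 248 within the shallower set and 73 to 148 with each library left out (148 without Mcoln1-/- library 21). At 2 months 33 were DE, against 24 to 85 (85 without control 1), and between control ages 178, against 88 to 233 (88 without 1-month control 1, 116 without 1-month control 3 and 117 without 3-month control 3). For the difference between 1 and 2–3 months, DESeq2 called 2 genes and omission of single libraries 0 to 1, which was *Ctsc* without 1-month control 2. The log2 fold-change of *Lgals8* at 3 months ranged from −0.31 to 0.22 with each library left out, and that of *Lgals3bp* at 7 months was 2.22 within the deeper and 1.48 within the shallower set. The causes of these shifts were not tested.

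*Lgals9* at 2 months was called with DESeq2, with all 23 libraries in 1 fit and without control 1 or Mcoln1-/- library 3. *Lgals3* did not pass the filter of at least 10 counts at 1, 2 and 2–3 months, where 9 to 35 reads limit its precision. The deviations of same-numbered control and Mcoln1-/- libraries from their group means were compared. Their r ran from −0.08 to −0.01 at 1 month, 0.04 to 0.14 at 2 months and −0.16 to 0.27 at 3 months. With so few pairs at each age, this check cannot decide whether the numbers pair the samples. With a replicate block, 1 gene was DE at 3 months, *Mcoln1*, in place of 5, and *Lgals3bp* (log2 fold-change 1.35) was not called. The block changed no other call of the 5 genes. At 7 months the groups share no numbers, so no block was fitted, and omission of single libraries was not run between Mcoln1 +/- and Mcoln1 +/+ controls.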

Other observations

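Of 9 partners of galectins and of galectin-3-binding protein tested in control brains between 1 and 3 months, 2 fell and 0 rose. *Cd9*, a tetraspanin, fell from 278.8 ± 37.5 to 168 ± 43.5 CPM (log2 fold-change −0.72, SE 0.17, adjusted p = 0.0319, edgeR; SD, n = 4 and 4), and *Itgb1*, the β1 integrin subunit, from 61.0 ± 6.55 to 38.3 ± 8.04 CPM (−0.67, SE 0.15, adjusted p = 0.0181). In the same comparison all 6 oligodendrocyte markers fell, and 3 of 6 leptomeningeal fibroblast markers, *Col1a1*, *Col3a1* and *Col1a2*, fell. At 1 month *Col1a1* was at 88.7 ± 80.8 CPM in controls, a spread nearly as large as its mean. The part of either marker list in the values of *Cd9* and *Itgb1* was not tested.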
